A study of Homo sapiens with 24 samples.

Results

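Metallothioneins and zinc transporters were followed here as 10 genes, the metallothioneins MT2A, MT1E, MT1F, MT1G, MT1M and MT1X, the zinc exporter SLC30A1, the zinc importers SLC39A1 and SLC39A10, and the transcription factor MTF1. They were taken by symbol from the RNA-seq gene tables, in which all 10 were present among 60448 symbols. Metallothioneins are small cytoplasmic proteins that bind zinc and copper through clustered cysteines. When free zinc rises, MTF1 binds metal response elements (MREs) in the promoters of metallothionein genes and of SLC30A1, so that zinc is both buffered and pumped out of the cell. Normal prostate epithelium is known for its high zinc content, which falls in prostate cancer, and SLC39A1 is one of the importers held to supply that zinc.

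The study raised wild-type C-Raf in 2 immortalized human prostate epithelial lines and asked what accompanies their spread in mice. BPH-1 is immortalized by SV40 and grew in medium with fetal bovine serum, whereas RWPE-1 is immortalized by HPV18 and grew in keratinocyte serum-free medium with bovine pituitary extract and EGF. C-Raf was expressed from a ubiquitin promoter in a lentiviral vector, and all lines, controls included, carried the vector and luciferase reporters. The metastasis-derived lines were C-Raf cells injected into the hearts of immune-deficient NSG mice, recovered from resected tumours and cultured before RNA was taken.

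There were 24 libraries in 6 groups. BPH-1 gave 3 libraries of the vector control, 3 of C-Raf parental cells and 6 of lines derived from metastases. RWPE-1 gave 1, 4 and 7 of these. Nothing in the labels says that libraries of a group came from separate cultures, so p-values measure the spread between these libraries, which may be technical. Total expected counts ran from 9035970 to 52851374. In 3 BPH-1 metastasis-derived libraries (BONE R071, BONE R074 and BONE R075) the small cytoplasmic RNA RN7SL1 took 93.3 to 97.5% of counts and only 111162 to 464692 protein-coding counts were left, so they were kept apart. In the remaining 3 from BPH-1 metastases (BONE R069, BONE R072 and THYMUS R075) RN7SL1 took 4.6 to 30.3%, the highest share being that of R072, which also stood apart from the others across genes. The labels give the lines numbered R075 conflicting tumour sites, so no comparison used the site. Levels are given as CPM (protein-coding counts scaled to depth, with TMM factors). All 8 epithelial markers examined were above 1 CPM in every library of 5 groups, with 7 of 8 in RWPE-1 metastasis-derived lines, whereas KLK3, the gene of prostate-specific antigen, was at 0 in each of the 21 deeper libraries.

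The 6 metallothionein genes lie together on chromosome 16 (GRCh38). MT2A spans chr16:56608199-56609497, MT1E chr16:56625475-56627112, MT1M chr16:56632233-56633986, MT1F chr16:56657694-56660698 and MT1X chr16:56682424-56684196, all on the plus strand, and MT1G spans chr16:56666731-56668065 on the minus strand. SLC30A1 (chr1:211571568-211578742), SLC39A1 (chr1:153959099-153968184) and MTF1 (chr1:37809567-37859620) are on the minus strand of chromosome 1, and SLC39A10 (chr2:195575977-195737702) is on the plus strand of chromosome 2. For each metallothionein the transcript with the most common coding length of the family, 186 bases, was taken, so their equal length follows partly from that choice. The 6 coding sequences each lie in 3 exons and hold 20 cysteine codons among 61 codons before the stop. Those of MT2A (coding span chr16:56608656-56609354), MT1E and MT1M are shown because these genes behaved differently between the lines while their coding sequences are close. They are the GENCODE 29 transcripts, 5′ to 3′, with the cysteine codons in capitals.
MT2A: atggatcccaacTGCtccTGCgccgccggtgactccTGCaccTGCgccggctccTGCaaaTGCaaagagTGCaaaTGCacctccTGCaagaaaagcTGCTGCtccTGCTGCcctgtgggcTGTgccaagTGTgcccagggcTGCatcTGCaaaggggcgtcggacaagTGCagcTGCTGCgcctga
MT1E: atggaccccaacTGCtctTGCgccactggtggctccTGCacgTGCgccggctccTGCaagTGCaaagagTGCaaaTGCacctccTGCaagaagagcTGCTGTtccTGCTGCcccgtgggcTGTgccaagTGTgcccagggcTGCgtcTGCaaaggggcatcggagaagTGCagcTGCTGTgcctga
MT1M: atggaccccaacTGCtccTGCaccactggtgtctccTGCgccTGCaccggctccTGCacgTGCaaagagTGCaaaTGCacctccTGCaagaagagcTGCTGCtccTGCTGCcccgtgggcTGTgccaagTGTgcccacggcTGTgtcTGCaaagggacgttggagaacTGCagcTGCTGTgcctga

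MT2A and MT1E were identical at 172 of 186 positions (92.5%), MT1E and MT1M also at 172, and pairs ranged from 88.7% (MT1X with MT1F) to 95.2% (MT2A with MT1G). Reads can therefore be shared between copies. Of all 50-base windows of the longest protein-coding transcript, 14.3% for MT1G, 10.6% for MT1E, 7.05% for MT1M, 4.88% for MT2A and 3.59% for MT1F also occurred in another metallothionein gene or pseudogene, against 0 windows for MT1X. How the authors' expected counts divide such reads could move the lower copies, so the values of MT1G, MT1M and MT1F carry that uncertainty besides counting error.

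RefSeq promoters (GRCh38.p14) were available for 6 of the 10 genes, each from 250 bases before to 50 bases after the start. The MRE core was searched as TGCACNC or TGCGCNC on both strands. MT2A held 8 matches, MT1X 4 and SLC30A1 2, one of the 2 SLC39A1 promoters and one of the 2 SLC39A10 promoters held 1, and MTF1 held 0. Of 35116 promoters of the same length, 29.6% held at least 1 match, 8.6% at least 2, 0.601% at least 4 and 0.0199% at least 8. A match is a run of letters and not a shown binding site. The 250 bases before the start are given for the 3 richest promoters, MT2A (chr16:56608334-56608583, plus strand, 7 of its 8 matches), MT1X (chr16:56682220-56682469, plus strand, all 4) and SLC30A1 (chr1:211579162-211579411, minus strand, 1 of 2), with matches in capitals.
MT2A promoter: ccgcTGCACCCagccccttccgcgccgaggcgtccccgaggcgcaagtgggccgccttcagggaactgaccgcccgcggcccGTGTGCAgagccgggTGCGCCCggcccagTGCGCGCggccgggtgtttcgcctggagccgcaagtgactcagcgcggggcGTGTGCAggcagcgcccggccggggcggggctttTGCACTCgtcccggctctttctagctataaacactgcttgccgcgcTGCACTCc
MT1X promoter: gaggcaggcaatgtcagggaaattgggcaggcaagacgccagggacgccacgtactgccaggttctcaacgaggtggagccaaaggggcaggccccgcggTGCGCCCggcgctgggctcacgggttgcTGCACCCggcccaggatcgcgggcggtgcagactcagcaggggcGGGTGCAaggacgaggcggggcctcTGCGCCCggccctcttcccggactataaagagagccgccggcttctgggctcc
SLC30A1 promoter: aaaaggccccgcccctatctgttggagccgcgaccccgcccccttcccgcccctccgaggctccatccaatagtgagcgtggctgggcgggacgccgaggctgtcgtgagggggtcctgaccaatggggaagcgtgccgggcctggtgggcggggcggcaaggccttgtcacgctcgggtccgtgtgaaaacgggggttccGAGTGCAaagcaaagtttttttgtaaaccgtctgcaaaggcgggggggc

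C-Raf overexpression in BPH-1 went with higher metallothionein mRNA. MT2A, the most abundant of the family, stood at 525, 483 and 503 CPM in the vector controls and at 1314, 1364 and 1300 CPM in the C-Raf parental libraries. Every C-Raf library was above every control. The fitted difference was 2.64-fold (log2 1.40, SE 0.03, adjusted p = 6.37e-25, edgeR quasi-likelihood test with Benjamini-Hochberg adjustment over all genes, as for every adjusted p here). MT1X had 25, 23.9 and 25.6 CPM in controls and 67.1, 68.6 and 63.4 CPM in C-Raf cells. Its difference of 2.68-fold (log2 1.42, SE 0.04, adjusted p = 1.43e-21) was of the same size as that of MT2A. MT1E rose less, from 53.7, 55 and 52.5 CPM to 101.2, 96.6 and 97.6 CPM (1.84-fold, log2 0.88, SE 0.03, adjusted p = 5.16e-19).

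The low-level copies also rose. MT1F went from 2.59, 1.8 and 2.67 CPM to 3.85, 4.25 and 4.08 CPM (log2 0.78, SE 0.14, adjusted p = 2.44e-05). MT1M, with 13 to 25 counts per control library and 31 to 47 per C-Raf library, differed by log2 1.13 (SE 0.25, adjusted p = 3.20e-04). MT1G, with 9 to 12 counts per control and 16 to 26 per C-Raf library, differed by log2 1.32 (SE 0.32, adjusted p = 7.65e-04). In each of these copies the 2 groups did not overlap. The share of all genes without overlap was not computed, and 59.8% of all genes tested were called in this comparison. The summed level of the 6 metallothioneins was 585.5 ± 21.6 CPM (SD, n = 3) in controls and 1497 ± 35.2 CPM (SD, n = 3) in C-Raf cells, and MT2A made up 85.6 to 88.8% of it across these libraries.

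**Figure D1:**
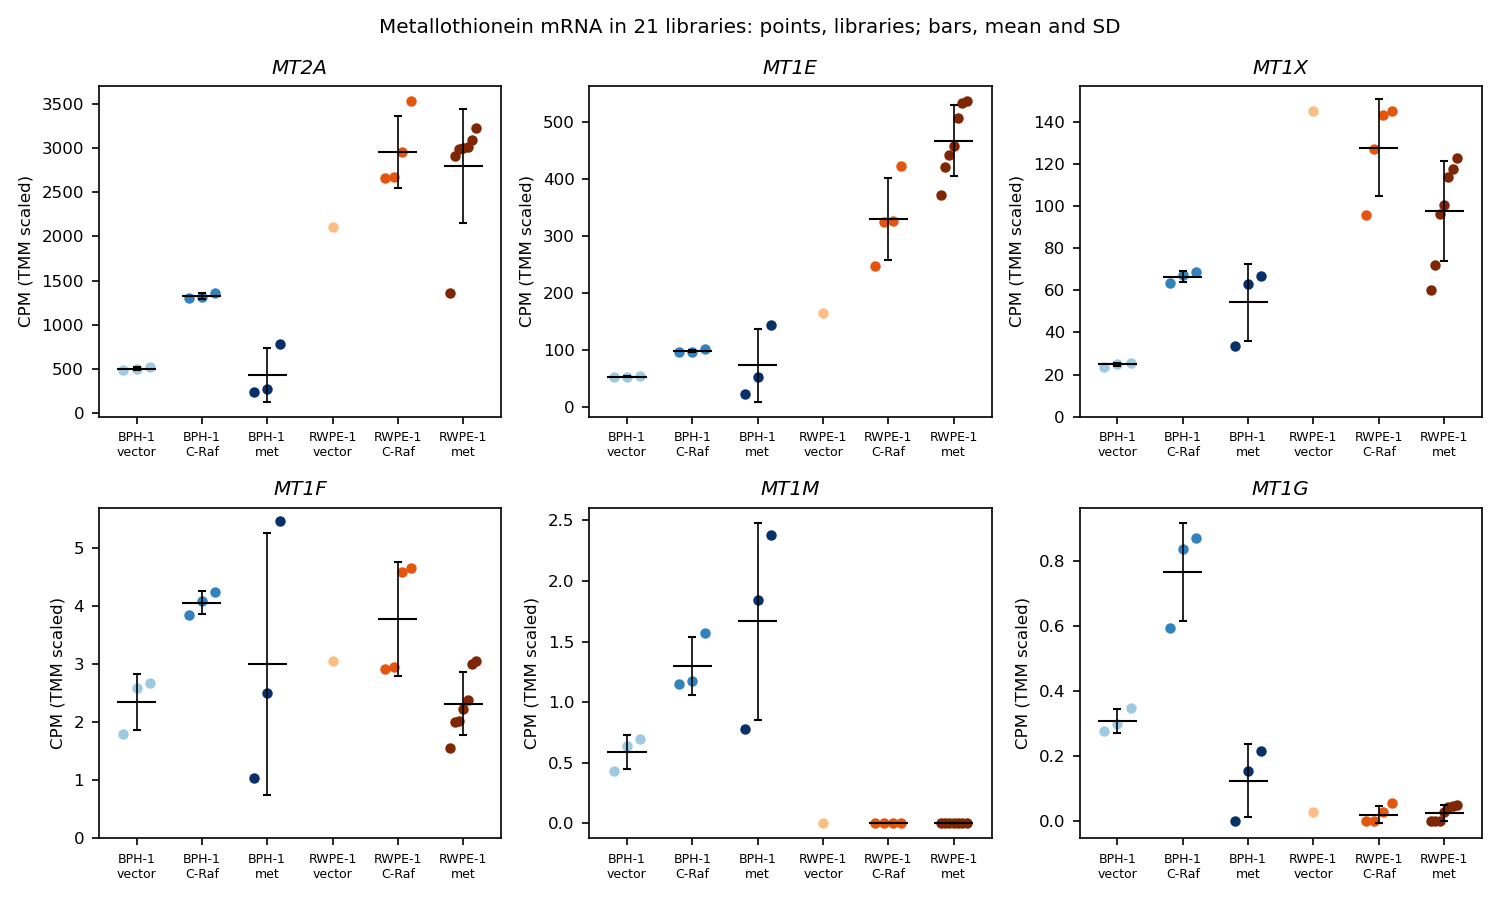
Level of each metallothionein gene (y axis, TMM-scaled CPM, linear) in the 21 deeper libraries by group (x axis), with each library as a point and the group mean and SD as black bars. MT2A in BPH-1 C-Raf cells (1300 to 1364 CPM) is above all controls (483 to 525), and MT1M is at 0 in all 12 RWPE-1 libraries.

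The transporters moved less than the metallothioneins. SLC30A1, which carries zinc out of the cell, had 25, 28.4 and 26.9 CPM in controls and 30.2, 30 and 33.6 CPM in C-Raf cells (1.17-fold, log2 0.23, SE 0.05, adjusted p = 3.78e-04). SLC39A10, a plasma membrane zinc importer, rose from 24.2, 26 and 23 CPM to 36.4, 35.2 and 40 CPM (1.53-fold, log2 0.62, SE 0.05, adjusted p = 3.33e-11). SLC39A1 was the member that fell, from 116, 114.7 and 117.2 CPM to 105.4, 101.2 and 104.7 CPM (log2 -0.15, SE 0.03, adjusted p = 6.06e-05). MTF1, the zinc-sensing activator, had 36 to 37.4 CPM in controls and 38.2 to 40.4 CPM in C-Raf cells (log2 0.11, SE 0.04, adjusted p = 0.0186). The MTF1 call was lost under DESeq2 (adjusted p = 0.0767) and without any 1 of vector control 1 (adjusted p = 0.0744), C-Raf 1 (adjusted p = 0.0642) or C-Raf 3 (adjusted p = 0.0712).

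All 10 genes were therefore called in this comparison, 9 higher and 1 lower, where 59.8% of the 13221 genes tested were called (30.4% higher and 29.4% lower). Their median log2 fold change was 0.83, against -0.00 over all genes tested. In a list of 27 other zinc genes (further metallothioneins and transporters of the SLC30 and SLC39 families), 15 could be tested. None of these was a metallothionein, since MT1A, MT1B, MT1H, MT3 and MT4 were too low to be tested in any comparison. Of the 15 transporters tested, 6 were higher and 6 lower, with a median log2 fold change of 0.01. Among them SLC30A3 (log2 -1.18, SE 0.21) and SLC30A4 (log2 -0.90, SE 0.09), which load zinc into vesicles, and SLC39A11 (-0.31, SE 0.07) were lower. SLC39A8 (log2 0.39, SE 0.06), SLC30A7 (0.29, SE 0.05) and SLC39A4 (0.21, SE 0.07) were higher. Markers moved in this comparison too. Of 8 epithelial markers 4 were called higher and 3 lower. The summed fibroblast markers went from 27.5 to 29.9 CPM in controls to 12.2 to 12.5 CPM in C-Raf cells. The 3 of them that could be tested were called lower. The summed haematopoietic markers went from 18.1 to 19.7 CPM to 45.1 to 47.6 CPM. Of the 4 that could be tested, LAPTM5 was 7.84-fold higher (log2 2.97, SE 0.10) and CD68 was higher (log2 1.02, SE 0.06). PTPRC, at most 0.695 CPM in these libraries, was lower (log2 -3.72, SE 0.67), and CD14 was not called. TYROBP was at 0 in both groups. The part of these markers in the result was not tested.

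The BPH-1 metastasis-derived lines had less MT2A than their C-Raf parents and varied widely. Stage and count table cannot be told apart in this comparison, since the 2 groups were deposited in separate tables. MT2A stood at 278 CPM in R069, 236 in R072 and 784 in THYMUS R075, all below the C-Raf range of 1300 to 1364 CPM. The first 2 of these were below the vector controls too, and the third was above them. The fitted difference from C-Raf cells was log2 -1.60 (SE 0.48, adjusted p = 0.0406). MT1G had 6, 0 and 4 counts in these lines, against 16 to 26 in the C-Raf libraries (log2 -2.36, SE 0.64, adjusted p = 0.0304).

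MT1E, by contrast, lay on both sides of its C-Raf level, at 52.7, 22.4 and 144.6 CPM in R069, R072 and THYMUS R075 (log2 -0.41, SE 0.60, adjusted p = 0.613). MT1X had 33.4, 66.7 and 62.9 CPM (log2 -0.26, SE 0.28, adjusted p = 0.486), so its lowest value was in R069 whereas the lowest MT1E was in R072. Without TMM factors MT1X stood at 32.9, 37.6 and 58.2 CPM, all below its C-Raf range of 67 to 73 CPM on that scale. MT1F ranged from 1.03 to 5.46 CPM and MT1M from 0.776 to 2.38 CPM, and both overlapped the C-Raf libraries. The summed metallothionein level was 368.3, 327 and 999.2 CPM, with MT2A at 72.2 to 78.4% of it, below its 88.3 to 88.8% in C-Raf cells.

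SLC30A1 was high in 2 of the 3 lines, at 76.3 CPM in R069 and 108.5 CPM in THYMUS R075, whereas R072 with 33.4 CPM lay inside the C-Raf range of 30 to 33.6 CPM. The difference missed the threshold (log2 1.23, SE 0.40, adjusted p = 0.0502) and passed it under DESeq2 (adjusted p = 0.00965) and with RLE size factors (adjusted p = 0.0445). MTF1 stood at 64.8, 46.1 and 84.2 CPM, above the C-Raf range of 38.2 to 40.4 CPM in each line (log2 0.74, SE 0.23, adjusted p = 0.0459). For R072 this place depends on its TMM factor of 0.566. Without TMM factors MTF1 in R072 was 26 CPM, below the 40.6 to 42.6 CPM of the C-Raf libraries. On that scale SLC30A1 in R072 was 18.9 CPM, also below its C-Raf range of 31.7 to 35.6 CPM. SLC39A10 stood at 19.7, 5.77 and 21.8 CPM, below all C-Raf libraries, without passing the test (log2 -1.22, SE 0.45, adjusted p = 0.0773), though it passed under DESeq2 (adjusted p = 0.0289). SLC39A1 stood at 66.8, 24.8 and 90.1 CPM, also below all C-Raf libraries (log2 -0.76, SE 0.43, adjusted p = 0.199).

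**Figure D2:**
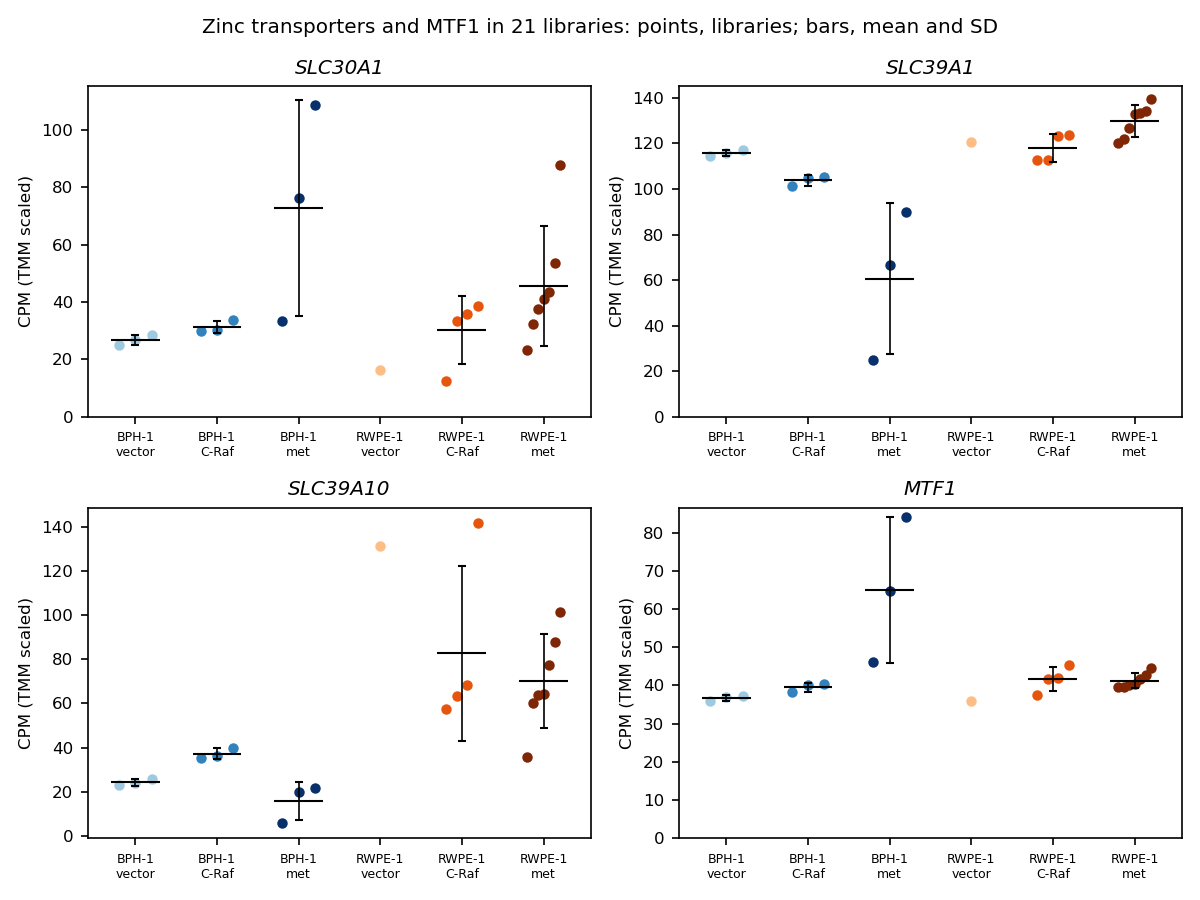
Level of SLC30A1, SLC39A1, SLC39A10 and MTF1 (y axis, TMM-scaled CPM, linear) in the 21 deeper libraries by group (x axis), with each library as a point and the group mean and SD as black bars. SLC30A1 reaches 76.3 and 108.5 CPM in 2 BPH-1 metastasis-derived lines and 87.7 CPM in the RWPE-1 line Bone4.

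Of the 10 members, 3 were called in BPH-1 metastasis-derived lines, 1 higher and 2 lower, where 37.7% of all genes tested were called (20.9% higher and 16.8% lower). Members called numbered 6 without R072 and 2 without THYMUS R075, and 0 without R069 or without any 1 of the 3 C-Raf libraries, so the count depends on which libraries enter the fit. The share of all genes called in each of those fits is not given here. Whether the members moved more than other genes was therefore not tested. Without R072 the difference of MT2A was log2 -1.33 (adjusted p = 0.0475) and that of SLC30A1 log2 1.56 (adjusted p = 0.00127), and without THYMUS R075 the difference of MT2A was log2 -2.34 (adjusted p = 0.00155). Keratins of these lines differed as well. Of 8 epithelial markers 2 were called higher and 4 lower, with KRT14, a basal keratin, 15-fold higher (log2 3.91, SE 0.38) and the luminal keratins KRT8 (log2 -2.96, SE 0.37) and KRT18 (log2 -2.84, SE 0.28) lower. The summed level of 8 fibroblast markers was 54.1 to 76.9 CPM in these lines and 12.2 to 12.5 CPM in C-Raf cells. Nearly all of it came from COL1A1 (51.1 to 73.9 against 11.3 to 11.4 CPM). COL3A1 (0.086 to 0.542 CPM) and PDGFRA (0.108 to 1.64 CPM) were at 0 in the C-Raf libraries. THY1 was at 0.172 to 0.507 against 0.033 to 0.134 CPM. COL1A2, LUM, PDGFRB and DCN (at most 0.039 CPM) overlapped between the groups. The sum of 4 endothelial markers was 2.61 to 42.7 against 1.57 to 1.67 CPM, with VWF called higher (log2 4.60, SE 1.08) and CDH5 lower (log2 -1.56, SE 0.35). That of 8 haematopoietic markers was 10.3 to 33.9 against 45.1 to 47.6 CPM, with TYROBP at 0 in both groups. Their part in the result, like that of the RN7SL1 share, was not tested. In such bulk RNA, fewer cells of a type and less RNA per cell cannot be told apart.

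Of the 27 other zinc genes, 16 could be tested, 2 were higher and 2 lower, with a median log2 fold change of -0.25, against 0.07 over all genes tested. SLC39A2, a plasma membrane importer, had 78, 41 and 34 counts in R069, R072 and THYMUS R075 and 1 to 3 counts in the C-Raf libraries (log2 5.37, SE 0.65, adjusted p = 0.00283). SLC30A4 stood at 15.5 to 28.6 CPM against 5.15 to 6.19 CPM (log2 2.08, SE 0.27, adjusted p = 0.00338). SLC39A4 (log2 -1.39, SE 0.44, adjusted p = 0.0464) and SLC39A3 (log2 -0.91, SE 0.26, adjusted p = 0.0365), both importers, were lower.

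In the 3 shallow BPH-1 libraries no member exceeded 16 counts and 6 of the 10 were at 0 in each. MT2A had 7, 5 and 3 counts in R071, R074 and BONE R075. Values in this paragraph are CPM without TMM factors, on which scale MT2A stood at 273, 133 and 726 CPM in R069, R072 and THYMUS R075. For R071 the 7 counts gave 15.1 CPM (95% Wilson interval 7.3 to 31.1, counting error only), for R074 the 5 counts gave 37.8 CPM (16.1 to 88.4) and for BONE R075 the 3 counts gave 27 CPM (9.18 to 79.4). A count of 0 allows up to 6.46, 22.7 and 27 CPM in these libraries (3 counts). MT1E, SLC39A1 and SLC39A10 were at 0 in all 3, and those bounds lie below their C-Raf parental levels of 103 to 106, 108 to 111 and 37.4 to 42.2 CPM. MT1F, MT1G and MT1M, which were under 6.46 CPM in the C-Raf parental cells as well, could not be resolved.

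RWPE-1 cells had more MT2A, MT1E and MT1X than BPH-1 cells already before metastasis. Cell line, medium and count table cannot be told apart here. MT2A stood at 2953, 3534, 2678 and 2661 CPM in the RWPE-1 C-Raf libraries, all above the 1300 to 1364 CPM of BPH-1 (2.26-fold, log2 1.17, SE 0.13, adjusted p = 9.94e-05). MT1E stood at 247.2, 422.8, 326.2 and 323.9 CPM against 96.6 to 101.2 CPM (3.39-fold, log2 1.76, SE 0.17, adjusted p = 4.58e-05). MT1X stood at 95.5, 127, 143 and 145.2 CPM against 63.4 to 68.6 CPM (1.95-fold, log2 0.96, SE 0.14, adjusted p = 5.34e-04).

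For MT1M and MT1G the order was the opposite. MT1M had 0 counts in all 12 RWPE-1 libraries, which hold 445968305 protein-coding counts together, and 113 counts in the 3 BPH-1 C-Raf libraries. With the floor of 3 counts over the 4 RWPE-1 C-Raf libraries, it was at least 63.1-fold lower there. MT1G had 3 counts in those 4 libraries together and 67 in the 3 BPH-1 C-Raf libraries, a ratio of 37.4 (95% counting interval 12.3 to 186). MT1F did not differ detectably (2.91 to 4.65 against 3.85 to 4.25 CPM, log2 -0.09, SE 0.22, adjusted p = 0.732).

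Among the transporters, SLC39A10 was higher in RWPE-1, at 141.8, 57.5, 63.4 and 68.2 CPM against 35.2 to 40 CPM (log2 1.17, SE 0.32, adjusted p = 0.0113). SLC39A1 differed little, at 112.6 to 123.7 against 101.2 to 105.4 CPM (log2 0.20, SE 0.06, adjusted p = 0.0146), and lost its call without BPH-1 C-Raf 2 (adjusted p = 0.0882) or BPH-1 C-Raf 3 (adjusted p = 0.0506). SLC30A1 overlapped between the lines (log2 -0.04, SE 0.34, adjusted p = 0.926). Its one low RWPE-1 value, 12.6 CPM, was in the library RWPE-CRAF, without which its difference was log2 0.21 (adjusted p = 0.0353). MTF1 overlapped (37.5 to 45.2 against 38.2 to 40.4 CPM), with a 95% interval of the log2 difference from -0.05 to 0.23.

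In all, 7 of 10 members were called between the lines, 5 higher in RWPE-1 and 2 lower, where 74% of all genes tested were called (38% higher and 36% lower). Of the 27 other zinc genes 15 were tested, 4 were higher and 8 lower, with a median log2 fold change of -0.28, against 0.02 over all genes tested. SLC30A3 (log2 -3.62, SE 0.52), SLC39A14 (-0.88, SE 0.06) and SLC39A3 (-0.62, SE 0.09) were lower in RWPE-1, and SLC30A4 (log2 1.22, SE 0.23), SLC30A5 (0.96, SE 0.08) and SLC39A13 (-0.58, SE 0.10) completed the 6 largest differences, the last of these also lower.

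**Figure D3:**
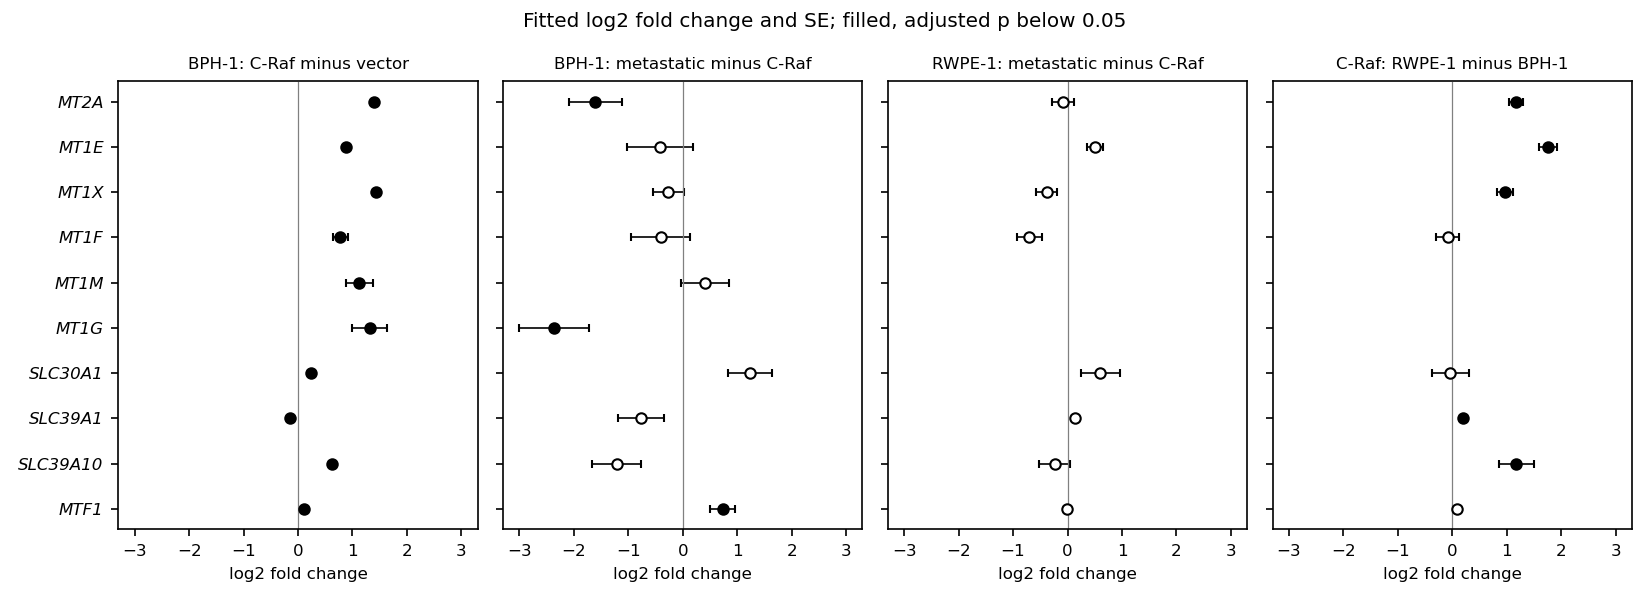
Fitted log2 fold change (x axis) of each member (y axis) in the 4 tested comparisons, with its SE as a bar and filled points for an adjusted p below 0.05. MT1M and MT1G are left out of the comparison of the lines, where the RWPE-1 counts are 0 and 3, and of the RWPE-1 metastasis comparison, where they were not tested. MT2A is at 1.40, -1.60, -0.07 and 1.17 from left to right.

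RWPE-1 C-Raf cells could be set beside a single vector control only, so there is no test of this step within RWPE-1. MT2A had 2106 CPM in the vector control, below all 4 C-Raf libraries (2661 to 3534 CPM). MT1E had 165 CPM, also below all 4 (247 to 423 CPM), and so did MTF1 with 35.9 CPM (37.5 to 45.2). For MT1X the vector control had 145 CPM, inside the C-Raf range of 95.5 to 145.2 CPM. The one C-Raf library deposited in the same table as the vector control, RWPE-CRAF, had 1.4 times its MT2A and 1.5 times its MT1E, but 0.658 times its MT1X and 0.779 times its SLC30A1. SLC39A10 divided by table, at 131 CPM in the vector control and 142 CPM in RWPE-CRAF but 57.5 to 68.2 CPM in the other 3 C-Raf libraries.

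A fit of both lines together, with a term for the line, gave C-Raf minus vector differences of log2 0.96 (SE 0.34, adjusted p = 0.275) for MT2A, 0.81 (SE 0.28, adjusted p = 0.257) for MT1X and 0.78 (SE 0.34, adjusted p = 0.448) for MT1E. With edgeR 0 of 10 members were called, where edgeR called 0.804% of all genes tested. An unadjusted p under 0.05 was seen for 4 members, without the share of all genes at that threshold, which is not given here. DESeq2 called 0 members. Shares over all genes for DESeq2 and for the changed fits that follow are not given here. Members called numbered 2 when the metastasis-derived lines were left out of the fit, namely MT1E (log2 0.92, adjusted p = 0.00117) and MT2A (log2 1.06, adjusted p = 0.00261). Without the RWPE-1 vector control, so that BPH-1 alone gave the difference, MT1X was called (log2 1.44, adjusted p = 0.00304), and without R072 MT1E was called (log2 0.85, adjusted p = 0.0446).

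RWPE-1 metastasis-derived lines had metallothionein levels that overlapped those of their C-Raf parents. MT2A had a median of 2999 CPM over the 7 lines, with a lowest value of 1358 CPM and a highest of 3228 CPM, against 2661 to 3534 CPM in C-Raf cells (log2 -0.07, SE 0.20, adjusted p = 0.956). The lowest value was that of Bone4, and the other 6 lines lay between 2911 and 3228 CPM. Across all genes the RWPE-1 C-Raf libraries differed from each other by a mean chi-square per gene of 30 to 232. Among the metastasis-derived lines Bone4 stood apart on this measure, at 153 to 187 against the others, which differed from each other by 17.6 to 103. MT1E ranged from 371 to 536 CPM with a median of 458 CPM, against 247 to 423 CPM (log2 0.50, SE 0.14, adjusted p = 0.31). It was called under DESeq2 (adjusted p = 0.0446), the lowest of its alternatives, which reached 0.721. MT1X ranged from 60.2 to 123 CPM with a median of 101 CPM (log2 -0.38, SE 0.19, adjusted p = 0.653), and MT1F from 1.55 to 3.05 CPM with a median of 2.22 CPM (log2 -0.70, SE 0.22, adjusted p = 0.375).

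The transporters were not called either. SLC30A1 ranged from 23.4 to 87.7 CPM with a median of 41 CPM, against 12.6 to 38.5 CPM (log2 0.60, SE 0.36, adjusted p = 0.713), and its highest value was again in Bone4, the line with the least MT2A. SLC39A10 ranged from 35.6 CPM, in Bone4, to 101 CPM (log2 -0.23, SE 0.29, adjusted p = 0.892). SLC39A1 (120 to 139 CPM, log2 0.14, SE 0.06, adjusted p = 0.585) and MTF1 (39.6 to 44.7 CPM, log2 -0.01, SE 0.06, adjusted p = 0.986) had the smallest ratios of highest to lowest value among the 8 members tested (1.16 and 1.13).

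With edgeR 0 of the 8 members tested were called in RWPE-1, where edgeR called 0.0986% of all genes tested (0.0759% higher and 0.0228% lower). Of the members 3 had an unadjusted p under 0.05 with edgeR, and the share of all genes at that unadjusted threshold is not given here. DESeq2 called 1 member, and its share over all genes is not given here. MT1G and MT1M were too low to be tested. The 8 members tested overlapped between the groups, and the share of all genes that did so was not computed. Within the table of the vector control (1 C-Raf and 3 metastasis-derived libraries, no test) MT1E was at 247 against 421 to 533 CPM, SLC30A1 at 12.6 against 23.4 to 41 CPM and SLC39A10 at 142 against 77.6 to 101 CPM. Within the other table (3 C-Raf and 4 metastasis-derived libraries) the log2 differences were 0.39 for MT1E (SE 0.16, adjusted p = 0.513), 0.63 for SLC30A1 (SE 0.27, adjusted p = 0.538) and -0.17 for SLC39A10 (SE 0.20, adjusted p = 0.839), and 0 members were called there. None of the 14 other zinc genes tested was called by edgeR, and 0 of them had an unadjusted p under 0.05.

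**Figure D4:**
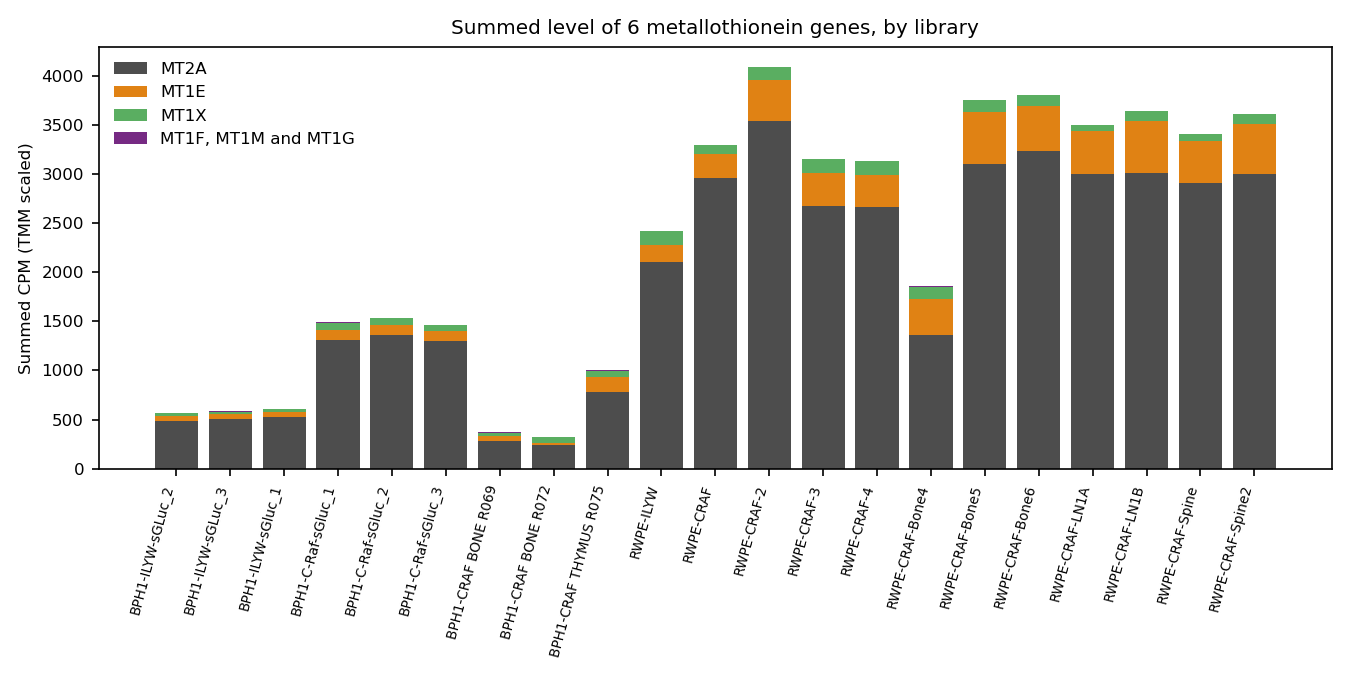
Summed TMM-scaled CPM of the 6 metallothionein genes (y axis, from 0) in each of the 21 deeper libraries (x axis), split by gene. MT2A makes up 72.2 to 89.5% of every bar, and among RWPE-1 libraries Bone4 (1855 CPM) is the lowest.

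Metastasis-derived lines of both cell lines were also set against their C-Raf parents in the joint fit. With edgeR 0 of 10 members were called, where edgeR called 0.711% of all genes tested. An unadjusted p under 0.05 was seen for 5 members, without the share of all genes at that threshold, which is not given here. DESeq2 called 1 member (SLC30A1, adjusted p = 0.0428), and its share over all genes is not given here. SLC30A1 had the smallest adjusted p among the members (log2 0.83, SE 0.27, adjusted p = 0.124), and MT2A differed by log2 -0.67 (SE 0.27, adjusted p = 0.157). The difference between the lines in this step was tested as an interaction over 17 libraries, where 44.5% of all genes tested were called (21% higher and 23.5% lower). Of the 10 members 3 were called. MT2A differed by log2 1.56 (SE 0.47, adjusted p = 0.0134) and SLC39A1 by 0.93 (SE 0.35, adjusted p = 0.0387), both with the metastasis difference higher in RWPE-1, and MTF1 by -0.71 (SE 0.20, adjusted p = 0.00836), with it lower in RWPE-1. In fits that left out 1 library, MT2A and MTF1 were called in all 17 and SLC39A1 in 7. MT1E (log2 0.95, SE 0.52, adjusted p = 0.151) was called without THYMUS R075 (log2 1.91, adjusted p = 3.30e-04), and SLC39A10 (log2 1.00, SE 0.54, adjusted p = 0.141) without the RWPE-1 C-Raf library RWPE-CRAF (log2 1.38, adjusted p = 0.0342).

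Of the 27 other zinc genes 16 entered the interaction, and 3 were higher and 2 lower in RWPE-1. SLC30A4 (log2 -2.28, SE 0.32) and SLC39A11 (-0.69, SE 0.25) were lower, and SLC39A8 (1.59, SE 0.47), SLC39A4 (1.53, SE 0.41) and SLC39A3 (0.82, SE 0.26) were higher. SLC30A4, called in BPH-1 in both steps in opposite directions, had a mean of 10.6 CPM in vector controls, 5.63 CPM in C-Raf cells and 23.5 CPM in metastasis-derived lines.

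Across the 6 groups, mean MT2A was highest in RWPE-1 C-Raf cells (2957 CPM) and then in RWPE-1 metastasis-derived lines (2799), the RWPE-1 vector control (2106), BPH-1 C-Raf cells (1326), BPH-1 vector controls (504) and BPH-1 metastasis-derived lines (432). The RWPE-1 metastasis-derived lines (1358 to 3228 CPM) overlapped the RWPE-1 C-Raf cells and their range held the vector control, and the BPH-1 metastasis-derived lines (236 to 784 CPM) overlapped the BPH-1 vector controls. The line Bone4, at 1358 CPM, reached into the BPH-1 C-Raf range. Per kilobase of its longest transcript, the mean MT2A level in BPH-1 C-Raf cells was 1687 CPM, followed by MT1E (135), MT1X (123), SLC39A1 (38.1), SLC39A10 (6.84), MT1F (5.88), SLC30A1 (5.71), MTF1 (4.96), MT1M (1.57) and MT1G (1.22). In RWPE-1 C-Raf cells the order began in the same way, with MT2A at 3762, MT1E at 453 and MT1X at 237 CPM per kilobase, and ended with MT1G at 0.0336 and MT1M at 0.

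Over the 21 deeper libraries, with the mean of each line removed, genes whose log2 CPM was among the 5 most like that of MT2A, of 14059, included C15orf39 (Pearson r 0.966), PTAFR (0.952), TAF1A (0.925) and NOC3L (0.92). The libraries share line, stage and table, so these are descriptions. Among the members, r with MT2A differed by line. Over the 9 BPH-1 and the 12 RWPE-1 libraries it was 0.837 and 0.403 for MT1E, 0.82 and 0.319 for SLC39A10, 0.827 and -0.455 for MT1G, 0.469 and -0.293 for MT1X, and -0.156 and -0.3 for SLC30A1. In RWPE-1 MT1G had at most 2 counts in a library.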

How the data were processed

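RNA-seq of 24 libraries was made from total RNA with an mRNA library kit. According to the study's methods and the submitters' processing notes, reads were trimmed with cutadapt, aligned to hg38 with STAR and quantified with RSEM. The deposited values were RSEM expected counts for 60448 symbols in 4 tables, neither normalised nor filtered. How RSEM shared reads between copies is not visible in them, and versions are not given in the sources used here.

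Expected counts were rounded to whole numbers and restricted to 19203 protein-coding symbols of GENCODE 29. Low counts were filtered with filterByExpr, TMM factors were computed, and edgeR 4.0.16 quasi-likelihood tests (glmQLFit and glmQLFTest in R 4.3.3) were run over all genes with Benjamini-Hochberg adjustment and a threshold of 0.05. SEs were the log2 fold change over the square root of F. Levels are CPM scaled by TMM over 21 libraries, and log2 CPM used a prior count of 2. The 3 low-depth BPH-1 lines were left out of the main fits. Depth was 20564794 to 41985563 protein-coding counts per library elsewhere, and intervals cover counting error only. DESeq2 1.42.0, RLE factors, no filter, all symbols, ComBat-seq (sva 3.50.0) and leaving out each library were the alternatives. The 10 members were always named, of the other zinc genes at most the 6 largest called changes per comparison, and the 5 genes most like MT2A, of which 1 is not reported here, nor is the level of the overexpressed gene. The edgeR and DESeq2 scripts were tested on simulated data. Same-numbered BPH-1 vector and C-Raf libraries did not deviate together. The members and lists were chosen with earlier results of these data known.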

Additional observations from a re-analysis of the deposited data

Results flagged for a closer look

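Of 18 groups of 4 to 10 libraries examined, 2 held a library far from the rest by Dixon's 95% criterion, which chance meets in about 1 of 20 groups. The groups were the RWPE-1 C-Raf and metastasis-derived libraries, taken gene by gene for MT1L (described below) and the members other than MT1M and MT1G. The BPH-1 groups held too few deeper libraries to be examined. MT2A in the RWPE-1 metastasis-derived line Bone4 stood at 1358 CPM, whereas the other 6 lines lay between 2911 and 3228 CPM. SLC39A10 in the RWPE-1 C-Raf library RWPE-CRAF stood at 142 CPM, whereas the other 3 lay between 57.5 and 68.2 CPM. That library came in the table of the vector control, which had 131 CPM.

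For 3 members the step from C-Raf parental to metastasis-derived cells differed between the lines by the edgeR interaction test, with log2 differences (RWPE-1 minus BPH-1) of 1.56 for MT2A, -0.71 for MTF1 and 0.93 for SLC39A1. The BPH-1 side rests on 3 lines in a table of their own.

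MT1L, a metallothionein-like locus between MT2A and MT1E at chr16:56617476-56618818 that GENCODE lists as a transcribed unprocessed pseudogene, was not among the protein-coding genes tested. Its mean in RWPE-1 C-Raf libraries was 50.2 CPM, with a range of 29.6 to 67.2 CPM, against 8.99 CPM in the vector control.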

How the results depend on the processing

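The direction and side of the threshold held for most alternatives (1171 of 1250 values of single members). Shares of all genes called are given for the main fits only. Counts of members called in the alternatives have no such share beside them. Members called from C-Raf parental to metastasis-derived BPH-1 lines numbered 3 in the main fit, 5 under DESeq2, 1 with the 3 low-depth lines and 0 to 6 without 1 library. For metastasis-derived RWPE-1 lines DESeq2 gave 1 against 0, and for both lines jointly 1 against 0. For C-Raf against vector in both lines jointly, members called numbered 2 with only these groups fitted and 0 to 1 without 1 library. For the interaction, members called numbered 1 against 3 with the low-depth lines. With those lines MT2A differed by log2 -2.53 in BPH-1 (adjusted p = 0.0555). Signs reversed, all without a call, for MT1X in the interaction with all symbols (log2 0.0664) and with the low-depth lines (0.24), for MT1E in the joint metastasis fit with the low-depth lines (-0.18), for MT2A (0.00735), SLC39A1 (-0.00497) and MTF1 (0.20) within the RWPE-1 table of the vector control, and under ComBat-seq for SLC39A10 in the joint C-Raf fit (-0.0114) and for MT1M (-0.18) and SLC39A1 (0.32) in the joint metastasis fit. Without 1 library, log2 values crossed 0 in the RWPE-1 metastasis comparison for SLC39A10 (-0.38 to 0.16), MT2A (-0.121 to 0.0440) and MTF1 (-0.0536 to 0.0313), between the lines for MT1F (-0.198 to 0.0117) and SLC30A1 (-0.18 to 0.21), in the joint C-Raf fit for SLC39A10 (-0.0191 to 0.328), and in the interaction for MT1X (-0.336 to 0.0986) and MT1F (-0.65 to 0.48). The cause was not tested. In BPH-1, same-numbered vector and C-Raf libraries correlated at 0.045, -0.0465 and -0.0384 over genes, so the numbers do not pair them, and the fit with the replicate block called 10 members as the main fit did. Depth limits MT1G and MT1M in RWPE-1 and every member in the 3 shallow libraries.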

Other observations

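MT1L divided the lines completely. It had 0 counts in all 12 BPH-1 libraries and 21354 counts over the 12 RWPE-1 libraries, none of which was at 0. With the floor of 3 counts over the 3 BPH-1 C-Raf libraries, it was at least 1419-fold higher in RWPE-1 C-Raf cells. Of the 50-base windows of its transcript, 4.42% occurred in another metallothionein gene or pseudogene. Among the RWPE-1 metastasis-derived lines MT1L ranged from 18.8 CPM, in Bone4, to 68.8 CPM. MT1M showed the opposite division, with 0 counts in all 12 RWPE-1 libraries and 295 counts over the 12 BPH-1 libraries. MT3, a metallothionein known from brain, had at most 4 counts in any BPH-1 library and at most 6 in any RWPE-1 library.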
